A study of Mus musculus with 12 samples.

Results

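The genes described here encode the subunits of the proteasome together with its activators and dedicated assembly chaperones. They were taken from the array annotation by name, as every symbol made of Psma, Psmb, Psmc, Psmd, Psme or Psmg and a number, without the inducible catalytic subunits Psmb8, Psmb9 and Psmb10, which were kept for comparison. This gave 43 of the 18194 genes named by a probe set of 1 gene, and each gene was represented by the probe set naming it alone with the highest mean signal over the 12 arrays. Livers came from C57BL/6J mice at 30 weeks of age, profiled on Affymetrix mouse expression arrays in 4 groups of 3 mice, given by sex and by LDC or control water. Here LDC (low-dose cadmium) stands for cadmium chloride at 100 nM in the drinking water, given to dams from a week before mating and to the offspring after weaning until they were killed, whereas controls received water alone. No genetic modification was part of any group, every sample was whole liver tissue, and arrays within a group are labelled as biological replicates with no litter named, so that mice of a group may share a dam. In whole tissue, fewer cells of a type and less RNA per cell cannot be told apart.

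The proteasome is the protease that degrades most short-lived and damaged proteins of the cytosol and nucleus once they carry ubiquitin chains. Its barrel-shaped core particle stacks rings of alpha subunits, which gate the entrance, on rings of beta subunits, which hold the proteolytic sites. A regulatory particle docks on the core, where non-ATPase subunits bind and strip ubiquitin and a ring of ATPases unfolds the substrate. The subunit genes of the complex are known to be transcribed in concert. Cadmium is known to bind protein thiols.

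The 12 arrays were scaled by the authors to a common trimmed mean, so each value is relative to the total signal of its array. Median signals per array lay between 95.1 and 110.3, and correlations of log2 signal over the tested probe sets lay between 0.914 and 0.941 within groups and between 0.872 and 0.941 across groups. Liver identity was checked with 8 hepatocyte genes, all above the filter, and the mean signal of albumin (Alb) was 48352 in control females, 48461 in LDC females, 55228 in control males and 50861 in LDC males. Control female 1 had the highest summed macrophage marker signal of all arrays (69633) and the highest summed signal of Psmb8, Psmb9 and Psmb10 (13024, against 6296 and 6621 on the other control female arrays), whereas the highest summed neutrophil signal was on control female 3 (22352) and the highest summed lymphocyte and plasma cell signal on control female 2 (12579). The number of arrays, 3 per group, limits the precision of every value. The p-values of the main fit refer to the spread within groups, pooled over the 4 groups and moderated with that of other probe sets.

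Of the 43 genes, 42 passed the filter on low signals, which kept the 27022 probe sets with a mean log2 signal of at least 5.60 (a signal of 48.6). The exception was Psmb11, the catalytic subunit of cortical thymic epithelium, which was not tested. Psma8, an alpha subunit of male germ cells, passed narrowly, with signals between 25.8 and 123 over the 12 arrays and a spread that overlapped in all groups. The other 41 genes were brighter. The median standard deviation within groups was 0.125 on the log2 scale for the 42 genes, against 0.343 for all tested probe sets and 0.153 for the 2192 probe sets of like brightness (the mean log2 signals from 10.92 to 12.30 that hold the middle of the proteasome genes).

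To ask whether LDC altered proteasome gene expression in males, LDC males were compared with control males. Signals of 36 of the 42 genes were lower on average in LDC males, and the median log2 difference over the genes was -0.22, which is a change of -14.4%, whereas the median over all tested probe sets was 0.00 and 49.9% of them were lower. No single gene passed the test (limma, adjusted p under 0.05 over all 27022 probe sets), and 0.278% of all probe sets did. At an unadjusted p under 0.05, 16 genes were lower and 0 were higher, whereas 5.08% of all tested probe sets were lower at that level. For 20 genes all 3 LDC male arrays lay below all 3 control male arrays, as was the case for 7.92% of all probe sets, and for 0 genes all lay above. Brighter probe sets are measured more tightly, and among the 2192 of like brightness 9.85% were lower at an unadjusted p under 0.05, 14.9% had all LDC male arrays below all control male arrays, and the median log2 difference was -0.02. The differences were small, ranging from -0.45 to 0.36, with a median absolute log2 difference of 0.244 over the 42 genes and 0.131 over the probe sets of like brightness.

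Each array was then described by the mean deviation of the 42 genes from their own 12-array means. Control males lay at 0.07, 0.10 and 0.07 on the log2 scale. LDC males lay at -0.04, -0.15 and -0.15, so that the male groups did not overlap. Control females, at -0.04, -0.04 and 0.11, and LDC females, at -0.03, 0.08 and 0.02, overlapped each other. LDC males 2 and 3 lay below all 6 female arrays. LDC male 1 did so only narrowly, at -0.044 against -0.039 for control female 2 and -0.036 for control female 1. The standard deviation between arrays of a group was 0.058. Counted by gene, 28, 31 and 28 of the 42 genes were above their own mean on the control male arrays, but 15, 6 and 5 on the LDC male arrays. LDC male 1 was thus the mildest of its group, and without it the median log2 difference in males was -0.28.

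**Figure D1:**
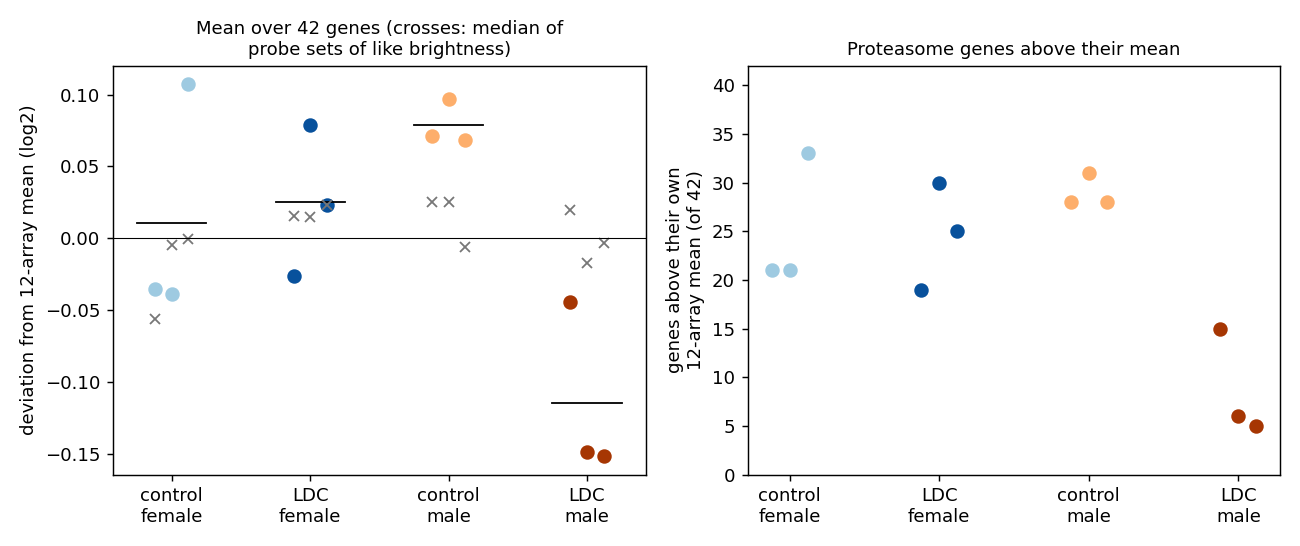
Left, mean deviation of the 42 tested proteasome genes from their 12-array means (log2) on each array, with black lines for group means and grey crosses for the median deviation of the 2192 probe sets of like brightness. Right, the number of the 42 genes above their own 12-array mean on each array. The 3 LDC male arrays are the lowest of the 12 on both scales, with 15, 6 and 5 genes above their mean. On the left, LDC male 1 (-0.044) lies close to control females 1 (-0.036) and 2 (-0.039). The grey crosses stay near 0.

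Other features of the male arrays are given beside these values. The summed signal of 11 neutrophil markers was between 5785 and 5862 in LDC males and between 1726 and 2972 in control males, and 8 of 8 tested markers lay higher in LDC males, 1 of them past the adjusted threshold. The summed signal of 12 macrophage and Kupffer cell markers was between 30020 and 43517 in LDC males and between 21410 and 21866 in control males, with 12 of 12 markers higher and 0 past the adjusted threshold. No marker was at 0, although Camp, Elane and Mmp8 lay below the filter. The ratio of 3' to 5' Gapdh signal, a sign of RNA integrity, was 0.724 ± 0.0395 (SD, n = 3) in LDC males and 0.793 ± 0.0378 (SD, n = 3) in control males, while the same ratio for actin was 1.89 ± 0.0599 and 1.90 ± 0.115. Lymphocyte and plasma cell markers had a median log2 difference of 0.14, with 5 of 8 higher. The 1 tested red blood cell marker, Alas2, had signals of 2702, 3812 and 2514 in control males and 1621, 2536 and 1664 in LDC males, with overlapping groups and a log2 difference of -0.64 (unadjusted p = 0.0122, limma adjusted p = 0.336). Hepatocyte markers had a median log2 difference of -0.05. The part of these features in the proteasome values was not tested.

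The proteasome genes were next read by the place of their products in the complex, starting with the alpha ring. Of its 8 genes, 6 were lower in LDC males and 4 of these had an unadjusted p under 0.05, while 0 passed the adjusted test. Psma1 had signals of 6982, 7924 and 7195 in control males and 6463, 5916 and 5800.1 in LDC males, so that every LDC array lay below every control array (log2 difference -0.28 ± 0.08 SE, unadjusted p = 0.00496, limma adjusted p = 0.248). Psma2 lay at 4976, 5231 and 4304 in control males and at 4149, 4000.2 and 3705 in LDC males (-0.29 ± 0.09, adjusted p = 0.292). Psma5 had a log2 difference of -0.32 ± 0.10, but the mean over all of its probe sets, of which 1 was dim, gave 0.01. Psma7 lay above 0 with the probe set used, whose signals were 4299, 3895 and 3909.6 in control males and 4778, 3960.5 and 4535 in LDC males, with overlapping groups and a log2 difference of 0.13 (95% confidence interval -0.08 to 0.34). Another bright probe set of Psma7 gave -0.12, with overlapping groups as well. Psma8 gave 0.36 with an interval of -1.03 to 1.76, too wide to place it.

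All 7 tested genes of the beta ring were lower in LDC males, 4 of them at an unadjusted p under 0.05. The largest difference of all members belonged to Psmb2, a beta subunit without a catalytic site, with signals of 4558, 4128 and 3562 in control males and 3198, 2668 and 3114 in LDC males. Its groups did not overlap, and its log2 difference was -0.45 ± 0.12, a change of -26.5% (unadjusted p = 0.00187, limma adjusted p = 0.161). Psmb3, another non-catalytic subunit, gave nearly equal control male signals of 3320.4, 3358 and 3349 and LDC male signals of 2966, 2405 and 2402. The log2 difference was -0.37 ± 0.10 (adjusted p = 0.157), and a second bright probe set of Psmb3 on the same arrays gave -0.50 ± 0.11 (adjusted p = 0.0933).

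The beta ring holds the 3 catalytic subunits, and each has an inducible counterpart that replaces it in the immunoproteasome, the form found in immune cells and after interferon. Psmb5, the chymotrypsin-like subunit, had signals of 5753, 5392 and 5094 in control males and 4654, 4606 and 4400.4 in LDC males, without overlap, with a log2 difference of -0.25 (unadjusted p = 0.0259). Psmb7, the trypsin-like subunit, varied more between control males (7769.8, 5777 and 5292) than between LDC males (4166, 5206 and 4629), and its log2 difference was -0.41 (unadjusted p = 0.0246). Psmb6, the caspase-like subunit, overlapped between the groups, with a log2 difference of -0.06 and a 95% confidence interval from -0.28 to 0.16. The inducible genes Psmb8, Psmb9 and Psmb10, which are no members of the set, lay on the other side of 0 in males, with log2 differences of 0.17, 0.25 and 0.21, none of them past an unadjusted p of 0.05.

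In females the same 3 inducible genes lay lower with LDC, by log2 differences of -0.69, -0.81 and -0.52 (unadjusted p = 0.00947, 0.00870 and 0.0308), and none passed the adjusted test. Psmb9 had signals of 3964, 1758 and 1447 in control females and 1302, 1291 and 1109 in LDC females. Much of the distance came from control female 1, and without that array the 3 log2 differences were -0.33, -0.37 and -0.26. Macrophage markers moved with these genes, since 12 of 12 lay lower in LDC females (median log2 difference -0.88), and 8 of 8 neutrophil markers did too, 4 of them past the adjusted test, with summed signals of 1394 to 2862 in LDC females and 6195 to 22352 in control females. Of 8 tested lymphocyte and plasma cell markers, 7 lay lower in LDC females and 2 of these passed the adjusted test (median -0.60), with summed signals of 1207 to 2475 against 5427 to 12579. The part of these markers was not tested. In control mice the inducible genes were lower in males than in females, by log2 differences of -1.18, -1.34 and -1.13 (limma adjusted p = 0.00568, 0.00686 and 0.00521), and all 3 calls held without control female 1, at -0.83, -0.90 and -0.87. Immune cell markers lay lower in control males as well, 12 of 12 for macrophages (median log2 difference -1.01, 0 past the adjusted test), 7 of 8 for neutrophils (-1.70, 5 past it) and 7 of 8 for lymphocytes and plasma cells (-0.98, 1 past it), and their part was not tested. The catalytic genes Psmb5, Psmb6 and Psmb7 differed by -0.05, -0.10 and -0.18 in females.

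**Figure D2:**
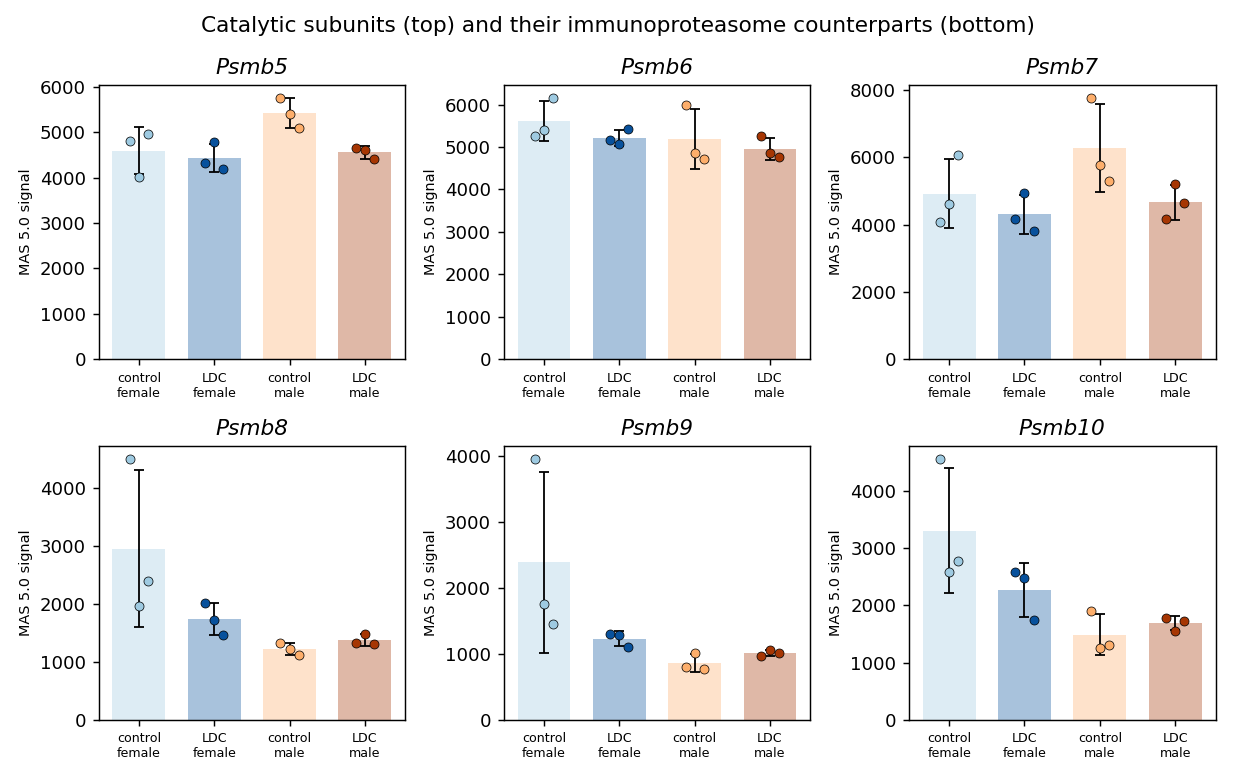
MAS 5.0 signal of the catalytic genes Psmb5, Psmb6 and Psmb7 (top) and of their inducible counterparts Psmb8, Psmb9 and Psmb10 (bottom) in the 4 groups, with points for arrays, bars for means and whiskers for SD (n = 3). Control female 1 is the highest point of every lower panel, and the LDC male points of Psmb5 and Psmb7 lie below the control male points.

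The 6 ATPases of the base, Psmc1 to Psmc6, unfold substrates and thread them into the core. All 6 were lower in LDC males, with log2 differences from -0.41 to -0.13, but only Psmc2 reached an unadjusted p under 0.05. Psmc2 had signals of 5778, 6463 and 6104 in control males and 5448, 4213 and 4197 in LDC males, hence without overlap, although LDC male 1 lay close to the controls (log2 difference -0.41 ± 0.12, limma adjusted p = 0.229). The least distant ATPase was Psmc6, at -0.13 with an interval of -0.31 to 0.05. In females the ATPases stayed between -0.06 and 0.05.

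The non-ATPase subunits of the regulatory particle receive the substrate, and this was the role with the lowest median in males. All 11 genes were lower in LDC males, with a median log2 difference of -0.33, and 7 had an unadjusted p under 0.05. Psmd12, a scaffold subunit of the lid, had the smallest p of all members. Its signals were 4057, 4346 and 4222 in control males and 3168, 3364 and 3048 in LDC males. The means of 4208 ± 145 and 3193 ± 159 (SD, n = 3) lay further apart than the spread of either group, at a log2 difference of -0.40 ± 0.10 (unadjusted p = 0.00106, limma adjusted p = 0.138).

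Psmd11, a lid subunit that braces the regulatory particle against the core, followed closely. Control males had signals of 5918, 5859 and 5167, and LDC males of 4405, 4277 and 4198, again without overlap (log2 difference -0.39 ± 0.10, adjusted p = 0.138). The suffix of the probe set used for Psmd11 marks probes that can be shared with other transcripts. A second bright probe set of Psmd11 gave -0.56 ± 0.12 on the same arrays (adjusted p = 0.0738). Psmd1, the large scaffold of the base, was uniform in LDC males at 3470.0, 3420.2 and 3467, below the control male signals of 4033, 4616 and 4577 (log2 difference -0.35, adjusted p = 0.217). The other members of this role with an unadjusted p under 0.05 were the ubiquitin receptor Psmd4 (-0.39), the deubiquitinating enzyme Psmd14 (-0.41), the base scaffold Psmd2 (-0.31) and the lid subunit Psmd6 (-0.33). Another bright probe set of Psmd6 gave -0.07 with overlapping groups (unadjusted p = 0.531). Psmd2 had a dim second probe set, and the mean of both gave 0.02. Psmd13 was the member of this role nearest to 0, at -0.06 with an interval of -0.32 to 0.20.

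**Figure D3:**
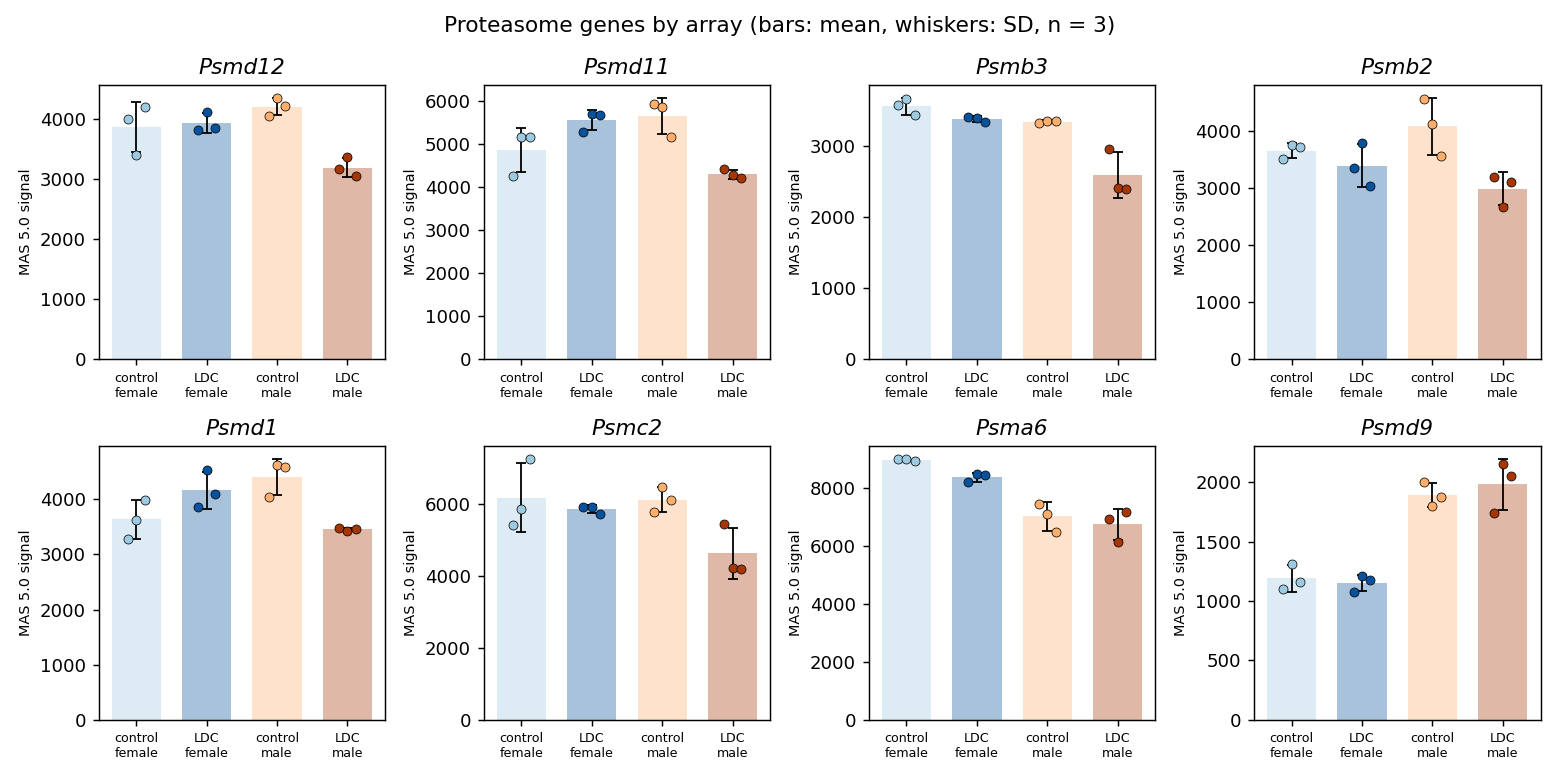
MAS 5.0 signal of 8 proteasome genes in the 4 groups, with points for arrays, bars for means and whiskers for SD (n = 3). For Psmd12, Psmd11, Psmb3, Psmb2, Psmd1 and Psmc2 every LDC male point lies below every control male point, whereas Psma6 and Psmd9 separate males from females.

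The stretch before the start sites of the genes was read as well. RefSeq windows on build GRCm38.p6 were at hand for 35 of the 43 genes, 37 windows in all, each covering 250 bases upstream of an annotated start. CCGGAAG, the core letters bound by ETS-family activators, occurred on either strand in 13 of the 37 windows (35.1%) and in 6.9% of the 32851 windows of all genes. CCAAT, the box bound by NF-Y, was found in 35.1% of member windows and 33.8% of all windows. TGACNNNGC, the core of the antioxidant response element through which Nfe2l1 and Nfe2l2 act, occurred in 13.5% and 10.2%. TGACTCAGC, a stricter form of the same element and therefore a subset of it, occurred in 0 member windows and 0.4% of all windows. A match is a description of letters, not of a bound site. The 12 genes with CCGGAAG had a median log2 difference in males of -0.26, and the 22 tested genes with a window but without it had -0.24. Within the non-ATPase subunits, 5 of 9 genes with a window held it. The 100 bases before the start are given here for Psmd12, Psmd11, Psmd2 and Psmb3, a choice made for display. Psmd2 had a limma unadjusted p of 0.0145 in males. Psmd1, with a smaller one of 0.00367, has a window that holds none of these elements. In Psmd12, Psmd11 and Psmd2 capitals mark CTTCCGG, the reverse complement of CCGGAAG, close to the start. Psmb3 lacks it, and there capitals mark its pair of CCAAT boxes.
Psmd12 chr11:107479428-107479527, + strand: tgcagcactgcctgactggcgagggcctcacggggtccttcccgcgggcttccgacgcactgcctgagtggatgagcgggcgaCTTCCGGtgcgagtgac
Psmd11 chr11:80428515-80428614, + strand: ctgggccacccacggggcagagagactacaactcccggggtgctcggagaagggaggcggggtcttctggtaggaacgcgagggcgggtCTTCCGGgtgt
Psmd2 chr16:20651552-20651651, + strand: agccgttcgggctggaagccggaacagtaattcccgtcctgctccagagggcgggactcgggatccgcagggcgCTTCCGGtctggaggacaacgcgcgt
Psmb3 chr11:97703334-97703433, + strand: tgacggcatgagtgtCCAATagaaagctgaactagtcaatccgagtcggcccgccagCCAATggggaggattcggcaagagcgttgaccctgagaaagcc

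Of the 3 chaperones that assemble the base, Psmd5 had a log2 difference of -0.08 in males, Psmd9 of 0.06 and Psmd10 of 0.01, and all 3 overlapped between the groups. The activators, which open the core without ATP, had log2 differences of 0.12 for Psme1, a subunit of the interferon-inducible activator, 0.01 for its nuclear relative Psme3 and -0.02 for Psme4. Their intervals were wide, from -0.30 to 0.27 for Psme4, and that interval also covers the median of all 42 genes in males (-0.22). The probe sets of Psme4 differed, since another bright one had signals of 3198, 3978 and 3758 in control males and 2959, 2903 and 2527 in LDC males, without overlap (log2 difference -0.38, unadjusted p = 0.00584, limma adjusted p = 0.266), and a further one gave -0.18, also without overlap. Psme2 was not analysed here because its probe set also names another gene. The chaperones of the core, Psmg1 to Psmg4, which guide alpha ring assembly, were all lower, between -0.29 and -0.08, and none had an unadjusted p under 0.05. For Psmg4 the groups did not overlap, with signals of 965, 743 and 807 in control males and 696, 678 and 665 in LDC males.

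**Figure D4:**
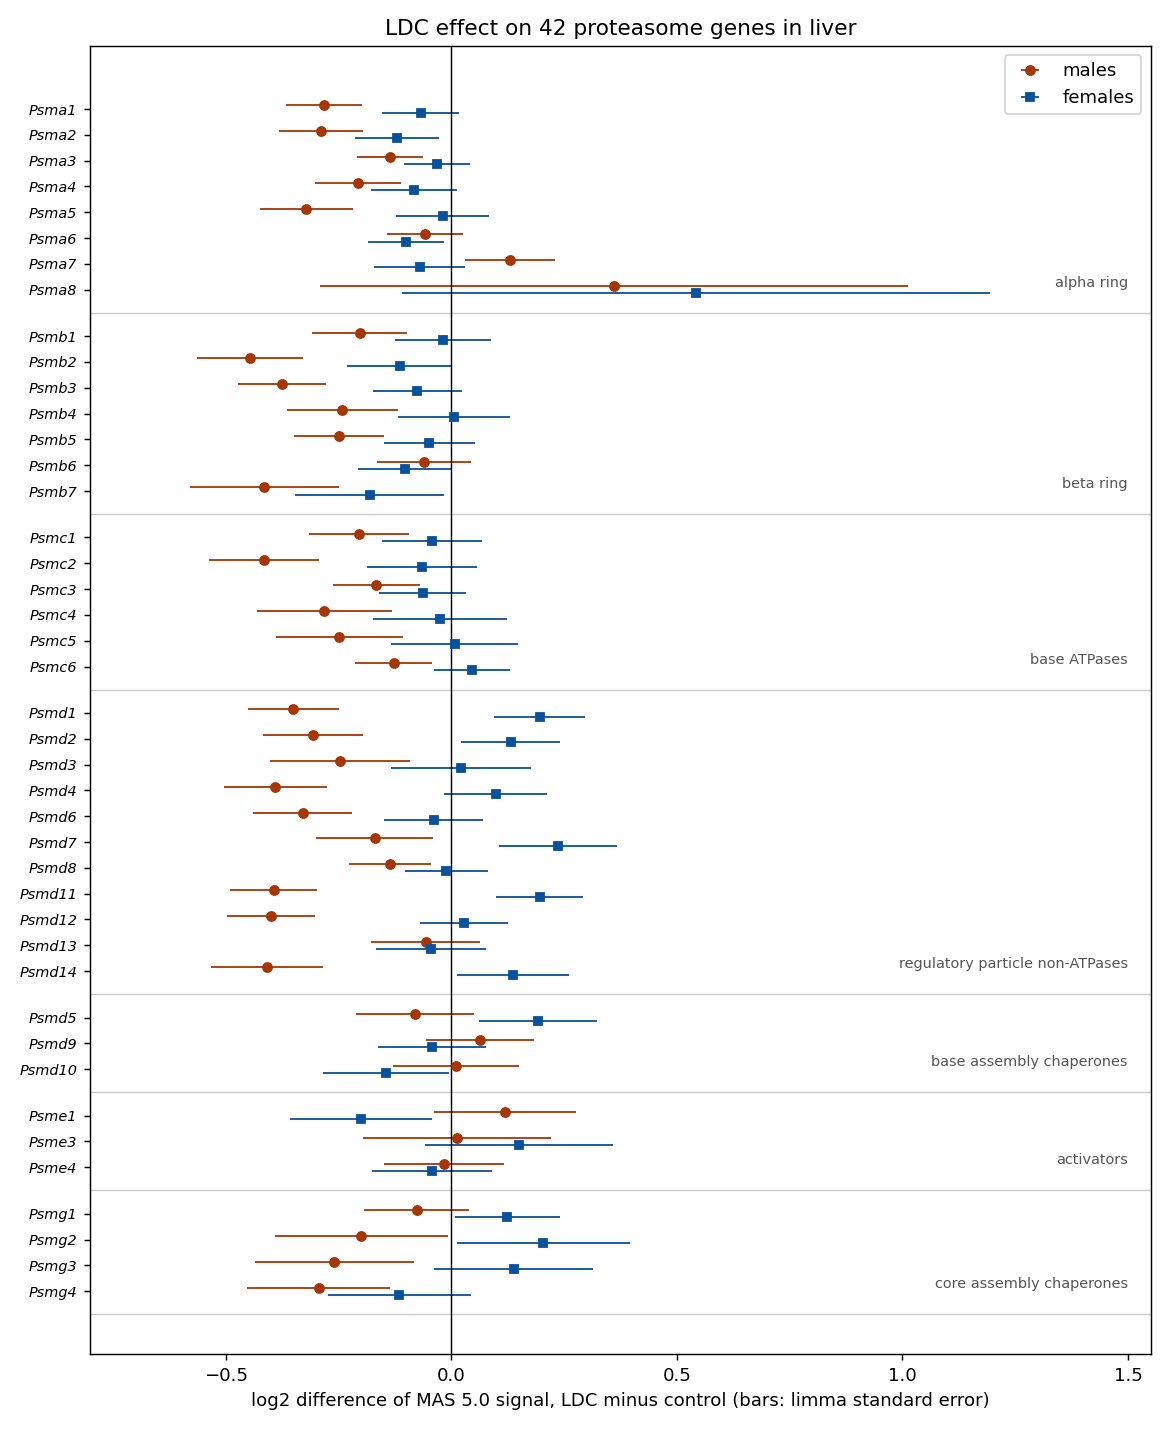
Log2 difference of MAS 5.0 signal between LDC and control mice for the 42 tested proteasome genes, grouped by role, in males (brown circles) and females (blue squares), with bars for the limma standard error. In males 36 of 42 points lie left of 0, including all 11 non-ATPase subunits, while the female points lie on both sides with a median of -0.03.

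In females the genes lay on both sides of 0. The median log2 difference was -0.03, with 17 genes above and 25 below 0, where 49.3% of all probe sets lay below. The adjusted test was passed by 0 genes and by 0.122% of all probe sets. At an unadjusted p under 0.05, no direction held any gene (0 higher, 0 lower), whereas 4.69% of all probe sets were higher and 4.33% lower. All LDC female arrays lay above all control female arrays for 2 genes (7.16% of all probe sets) and below them for 3 genes (6.71% of all probe sets). The smallest p in females belonged to Psmd11, with signals of 4261, 5162 and 5154 in control females and 5282, 5686 and 5674 in LDC females (log2 difference 0.20, 95% confidence interval -0.01 to 0.40). Psmd1 (0.20) and Psmd7 (0.24), the lid partner of the deubiquitinating enzyme, came next, and the 3 had unadjusted p values of 0.0623, 0.0719 and 0.0889. By role, 8 of the 11 non-ATPase subunits lay above 0 in females, whereas 7 of 8 alpha and 6 of 7 beta genes lay below it.

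Whether LDC acted differently in the sexes was tested gene by gene, as the male minus the female log2 difference. This was below 0 for 35 of 42 genes, with a median of -0.21. Of all probe sets 50.5% lay below 0 (median -0.01), and of those of like brightness 56.5% (median -0.04). The adjusted test was passed by 0 genes and by 0.178% of all probe sets. At an unadjusted p under 0.05, 8 genes were lower and 0 higher, against 4.91% of all probe sets and 11.2% of those of like brightness lower. Of these 8 genes, 7 were non-ATPase subunits of the regulatory particle and the eighth was Psmb3. Psmd11 had the widest gap, -0.59 ± 0.14 (unadjusted p = 7.00e-04, limma adjusted p = 0.139), followed by Psmd1 at -0.55 and Psmd14 at -0.54. For Psmd14 (limma adjusted p of the difference 0.316) LDC males, at 3798, 3299 and 3133, were below all control males (4933, 4179.8 and 4446). Its LDC females, at 4481, 4463 and 3492, overlapped the control females (3452, 3609 and 4216). The female log2 difference was 0.14 with an interval of -0.13 to 0.40, so a rise in females was not shown. Psme1 stood at the other end, with a difference of 0.32 and an interval of -0.16 to 0.79. Its signals were 7932, 4462 and 5490 in control females, highest on control female 1, and 4802, 5183 and 5149 in LDC females. In the same difference 8 of 8 neutrophil markers lay above 0, 5 of them past the adjusted test, and Alas2 lay at -0.90, and their part was not tested. The mean effect over both sexes had a median of -0.10, 0 genes past the adjusted test (0.0444% of all probe sets) and 10 lower at an unadjusted p under 0.05 (4.22% of all probe sets and 6.66% of those of like brightness). Psmb2 led that list with a mean log2 difference of -0.28 (adjusted p = 0.269), followed by Psmb3 (-0.22) and Psma2 (-0.20).

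With the probe sets used for the genes, the adjusted test was passed between the sexes and in no LDC comparison. In control mice, Psmd9, a chaperone that pairs with ATPases before the base is built, was 1.59-fold higher in males, and it was the 1 member among those higher (3.59% of all probe sets). Its signals were 1099.9, 1315 and 1158 in control females and 1999, 1803 and 1877 in control males, with a log2 difference of 0.67 ± 0.12 (limma adjusted p = 0.00315). No other tested probe set of Psmd9 passed the adjusted test, and the mean of all of them lost the call. The log2 difference of Psmd9 was still at least 0.613 in every alternative setting. Psma6, of the alpha ring, was the 1 member that was lower in males (4.14% of all probe sets), with a log2 difference of -0.36 (adjusted p = 0.0192), from 8986, 8978 and 8910.5 in control females to 7456, 7097 and 6482 in control males. The Psma6 call rests on its probe set, whose suffix marks probes that can be shared with other transcripts, and another bright probe set gave 0.08 ± 0.07. Without control male 3 the Psma6 call was lost. In all, 26 of the 42 genes were higher in control males than in control females, as were 48.5% of all probe sets and 54.7% of those of like brightness. Their median log2 difference was 0.11, which was 0.009355 without control female 2. Among probe sets of like brightness 18.3% passed the adjusted test in either direction, against 2 of the 42 genes. All male arrays lay above all female arrays for 10 genes (11.6% of all probe sets) and below them for 4 (13.0% of all probe sets). Psmd8, a lid subunit, was the next in line, at 0.29 (adjusted p = 0.0757).

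In LDC mice 34 of the 42 genes lay lower in males than in females, with a median log2 difference of -0.18. Of all probe sets 52.3% lay lower, and of those of like brightness 52.9%. Psmd9 was again higher in males (0.78 ± 0.12, limma adjusted p = 0.00104), and it was 1 of 4 members past the adjusted test (6.29% of all probe sets and 16.6% of those of like brightness). The other 3 were lower in LDC males than in LDC females, Psmb3 at -0.39 (adjusted p = 0.0274), Psmd11 at -0.37 (adjusted p = 0.0352) and Psma6 at -0.31 (adjusted p = 0.0401). Other bright probe sets gave -0.16 for Psmb3 (adjusted p = 0.478), 0.02 for Psma6 (adjusted p = 0.944) and -0.66 for Psmd11 (adjusted p = 0.00318). The other tested probe sets of Psmd9 were not higher in LDC males at an unadjusted p under 0.05. The mean of all probe sets lost its call, although its log2 difference was at least 0.696 in every alternative setting. All male arrays lay below all female arrays for 20 genes (14.4% of all probe sets and 24.3% of those of like brightness) and above them for 2 (12.5% of all probe sets). The comparisons share arrays, and for each gene the gap between its sex differences in LDC and in control mice equals the difference of its LDC effects. Of 24 alternative settings, the call was kept in 22 for Psmd9, 16 for Psmb3, 13 for Psmd11 and 11 for Psma6. Leaving out LDC female 1, 2 or 3, or LDC male 2 or 3, left Psmd9 as the 1 called member, Psma6 was also lost without control male 2, and Psma6 and Psmd11 were lost without LDC male 1.

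Genes around the proteasome were read from lists of named genes to place these values in the pathway. Among 13 tested proteasome-associated factors, 6 were higher and 7 lower in LDC males (median log2 difference -0.03), 1 of them lower at an unadjusted p under 0.05 and 0 past the adjusted test. That gene was Rad23b, a shuttle that carries ubiquitinated proteins to the proteasome, with 3689.7, 4681 and 4343 in control males and 3437, 3395 and 3448 in LDC males (-0.30, adjusted p = 0.290), and its value in females was 0.20. Ubqln1, another shuttle, had log2 differences of -0.19 in males and 0.20 in females. Of 5 tested genes of ubiquitin supply and unfolding, 4 were lower in LDC males, among them Nsfl1c, a cofactor of the unfoldase Vcp, at -0.56 (unadjusted p = 0.00636, limma adjusted p = 0.274). Vcp itself had -0.18 in males and 0.15 in females.

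Among 8 tested genes of transcriptional control, Nfe2l1, the activator of proteasome genes when proteasome capacity falls short, differed by 0.09 in males and 0.01 in females. The smallest p values of that list belonged to Stat3, at -0.65 in females (adjusted p = 0.220), and to Mafg, a partner of the Nfe2l factors, at 0.43 in females (adjusted p = 0.445). The 10 autophagy genes, which serve the other main route of protein degradation, had medians of -0.08 in males and 0.01 in females, and their leading genes Map1lc3b (-0.15 and -0.16) and Lamp1 (-0.08 and -0.15) lay on the same side in both sexes.

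Heat shock chaperones, which refold proteins that would otherwise be degraded, lay near 0 in males and mostly above it in females. Their 11 tested genes had a median log2 difference of -0.05 in males, where 0 had an unadjusted p under 0.05. In females the median was 0.51, with 8 genes higher at an unadjusted p under 0.05 and 0 past the adjusted test. That level was met upward by 4.69% of all tested probe sets. Summed signals were 63830 to 71446 in control females and 82290 to 97059 in LDC females. Control males, at 85944 to 104710, and LDC males, at 84751 to 108150, also lay above all control females. In control mice the genes had a median male minus female log2 difference of 0.47, with 4 higher past the adjusted test. Without control female 1 these were 0.42 and 2, and LDC mice had -0.08 with 2 lower past it. The co-chaperone Bag3 had signals of 1662, 1267 and 862 in control females and 1921, 2250.5 and 2410.5 in LDC females (log2 difference 0.84, adjusted p = 0.128). Dnajb1, which activates Hsp70 chaperones, lay at 0.64 in females and -0.06 in males. Interferon and antigen presentation genes, 13 of which were tested, had medians of 0.38 in males and -0.46 in females, with 0 past the adjusted test in either sex, and the female median was -0.12 without control female 1. The transactivator of class I genes Nlrc5 (-0.94) and the peptide-loading factor Tapbp (-0.46) led that list in females.

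**Figure D5:**
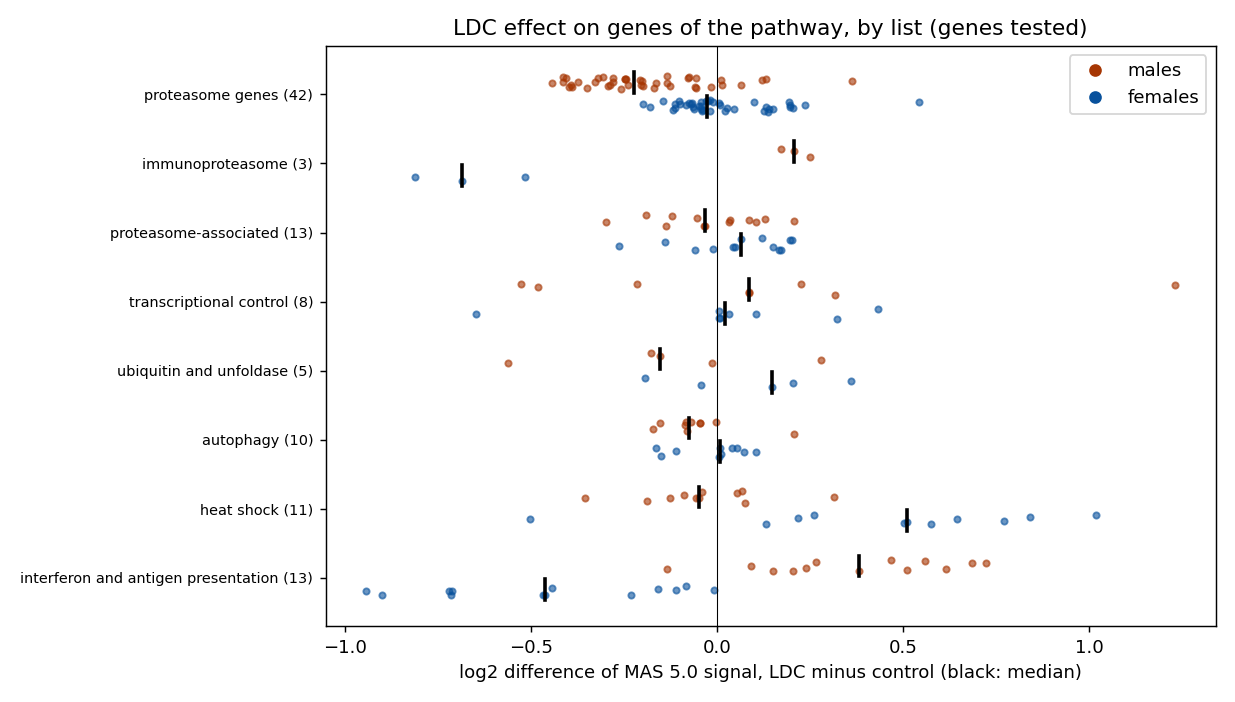
Log2 difference of MAS 5.0 signal between LDC and control mice for the tested genes of each list (number in brackets), in males (brown) and females (blue), with black lines for medians. The proteasome genes lie left of 0 in males with a median of -0.22, the heat shock genes have a median of 0.51 in females, and the medians of the immunoproteasome and interferon genes lie right of 0 in males and left of 0 in females.

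The remaining probe sets of the same genes give a reading of the males that was not used to choose the genes' values, although it comes from the same RNA. Of 39 such probe sets that passed the filter, 27 were lower in LDC males (49.9% of all tested probe sets), with a median log2 difference of -0.18. At an unadjusted p under 0.05, 10 were lower and 0 higher. At that level 5.08% of all tested probe sets were lower, and 9.85% of the 2192 in the brightness range of the members. Each of the 39 is dimmer than the probe set used for its gene, so the 2192 are not matched to their brightness. Some genes also hold several of the 39, so these counts are not counts of separate genes. All LDC male arrays lay below all control male arrays for 14 of them and above for 1. The shares lying below were 7.92% of all tested probe sets and 14.9% of those 2192. For Psmb4 another bright probe set gave 0.00 where the one used gave -0.24, and for Psmc6 0.02 where the one used gave -0.13. A single one passed the adjusted test in males, a second probe set of Psmc2, with signals of 5175, 6016 and 5594 in control males and 4285, 3955 and 3883 in LDC males. In females the 39 probe sets had a median of -0.07. At an unadjusted p under 0.05, 0 were lower (4.33% of all probe sets) and 1 higher (4.69%).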

How the data were processed

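Livers of 12 mice, 3 for each of 4 groups, were measured on Affymetrix Mouse Genome arrays. Per the labels and the study's methods, the authors processed the scans in GeneSpring with MAS 5.0 and deposited 1 intensity value per probe set on a linear scale. Each array's 2% trimmed mean was 500. Depth has no counterpart on arrays, whose number limits the precision.

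Of 45101 probe sets, 64 controls were left out. According to the platform annotation, 34958 named 1 gene, 932 named several and 9211 named none. Signals were converted to log2, and the 27022 probe sets at or above the 40th percentile of mean log2 signal were tested with limma (version 3.58.1, R 4.3.3), by lmFit with 1 mean per group and eBayes with an intensity trend, and Benjamini-Hochberg adjustment over all of them, called at 0.05. This differs from the authors' selection by fold and unadjusted p-value, for which no array test is stated. The 6 contrasts were the LDC effect within each sex, the difference and the mean of both effects, and the sex difference within each treatment. Log2 differences are given with standard errors, and intervals are 95% confidence intervals of the same fit.

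Genes described one by one were members past the adjusted test in any contrast, the 3 smallest p values of each contrast, the largest and smallest mean LDC effect of each role, 6 genes set by name (Psme1, Psmb5, Psmb6, Psmb7, Psma8 and Psmb11), and up to 2 genes per pathway list. Further genes were named where a count of a role or list called for it, after their values were seen. The members and lists were chosen with earlier results of these data known. Sequences came from RefSeq on GRCm38.p6. The fit was tested on simulated data. Alternatives covered filters, scaling, probe set choice, the test, a replicate block and single arrays left out. No slide or scan batches are given in the sources used here.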

Additional observations from a re-analysis of the deposited data

Results flagged for a closer look

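A second probe set of Psmc2, an ATPase of the proteasome base, passed the adjusted test where the probe set used for the gene did not. Its log2 difference in males was -0.47 ± 0.09 (limma adjusted p = 0.0448), with signals of 5175, 6016 and 5594 in control males and 4285, 3955 and 3883 in LDC males, lower in 3 of 3 LDC arrays. It was singled out because it is a measurement outside the main set of values, in which Psmc2 gave -0.41 (adjusted p = 0.229). The same probe set also differed between the sexes in its response to LDC, by -0.71 ± 0.12 as male minus female log2 difference (limma adjusted p = 0.0407). In females its signals were 4843, 5143 and 5241 in controls and 5876, 5786 and 6286 with LDC, a log2 difference of 0.24. The suffix of this probe set marks probes that can bind other transcripts, and a remaining probe set of Psmc2 gave -0.37 ± 0.65 in males. Why the probe sets of this gene differ was not tested.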

How the results depend on the processing

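The LDC comparisons gave 0 members past the adjusted test as reported and in every alternative run, and in males the count of members below 0, of members lower at an unadjusted p under 0.05 and of members without overlap stayed within 1.5 times of the values given. Leaving out single arrays, the male median log2 difference ran from -0.28 (without LDC male 1) to -0.18, the members lower at an unadjusted p from 13 to 19, and the median of the control sex difference from 0.009355 (without control female 2) to 0.17. The sex calls were less steady, and the causes were not tested. In LDC mice the 4 called members became 2 without any filter on signal, 7 at the stricter 60th percentile, 7 with median centring, 0 with the mean of all probe sets per gene, 1 without the intensity trend, 8 with array weights, 0 with a plain t-test per probe set (a test the study's methods name for body composition and not for arrays), 2 with the replicate block, and 1 to 5 when an array was left out. In control mice the 2 called members became 0 with the mean of all probe sets, 1 without the trend, 0 with the plain t-test, and 1 to 3 when an array was left out. Median centring moved the LDC sex difference of the members to -0.26, and that of all probe sets to -0.10. With the mean of all probe sets, dim ones included, signs turned for Psma5 in males (0.00964) and over both sexes (0.00024), for Psmd2 in males (0.0209) and for Psma6 in control mice (0.14). For members named with a test, 915 of 958 values kept direction and side of the threshold and 39 lost a call. Most of these values belong to LDC results without a call, so that total says little about the calls. In control mice the call was kept in 22 of 24 settings for Psmd9 and 20 for Psma6. In LDC mice it was kept in 22 for Psmd9, 16 for Psmb3, 13 for Psmd11 and 11 for Psma6. The labels do not say whether replicate numbers pair the mice. In deviations from group means, same-numbered arrays correlated between -0.028 and 0.059 in 18 pairs. Other-numbered arrays of different groups correlated between -0.078 and 0.082. For 8 of the 12 arrays the closest array of another group had the same number, and the reason was not tested. An alternative chosen after seeing the data, leaving out control female 1, left the 3 inducible catalytic genes on the same side of the threshold.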
